A study of Mus musculus with 183 samples.

Results

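The transcripts described here are the mRNAs of the cytosolic ribosomal proteins of the mouse. The members were taken by symbol: a protein-coding gene counted as a member when its symbol was Rpl or Rps followed by a number and at most one of the letters a, x or l, or was Rplp0, Rplp1, Rplp2 or Rpsa. That rule gave 80 genes of the 53380 in the gene counts, of which 49 encode proteins of the large subunit and 31 proteins of the small subunit. Another 3 genes with symbols of the same form are not annotated as protein coding and were left out, as were the S6 kinases. All 80 members passed the filter on low counts in each comparison.

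Cytosolic ribosomes are built from ribosomal RNAs and a fixed set of proteins, most of them needed in equal number, and the mRNAs of these proteins are among the most abundant and most translated in dividing cells. Many of these mRNAs begin with a 5′ terminal oligopyrimidine (TOP) tract, an unbroken run of C and T that lets the mTOR pathway and the RNA-binding protein LARP1 switch their translation on and off together. Ribosomal protein genes have also left very many processed pseudogenes in the genome, near-identical copies made from the spliced mRNA. Rpl3, named against the rest below, encodes a large-subunit protein next to the peptidyl transferase centre of the ribosome. SKIV2L is the helicase that feeds RNA into the cytoplasmic exosome for 3′–5′ decay, XRN1 is the cytoplasmic 5′–3′ exonuclease, MTR4 is the nuclear exosome helicase, and AVEN is an RNA-binding protein studied here beside them.

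RNA-seq counts were analysed from 47 libraries of mouse embryonic stem cells, grown in serum and LIF on gelatin, that carry Cre fused to a tamoxifen-responsive oestrogen receptor at the Rosa26 locus. The cells came from 2 clones. Clone 5F is Rosa26Cre-ERT2/- with both Skiv2l alleles floxed (Skiv2l fl/fl). Clone 7E is, by the labels of these libraries, Rosa26Cre-ERT2/BirA-V6 with 3xFLAG-Avi-Skiv2l and lacks Aven (Aven-/-). The study's methods write the tag of the biotin ligase BirA as V5, and other labels of this clone also give it as Skiv2l fl/fl. Each clone was sampled at day 0, without 4-hydroxytamoxifen (4OHT), and at day 4 of 0.1 µM 4OHT, the drug that lets Cre act. At each day the cells received mock treatment (0 min) or actinomycin D, which blocks transcription, for 120, 240 or 360 min. By the study's methods the mock itself lasted 360 min, in fresh medium with DMSO. The mock and 120 min libraries thus also differ in time after the change of medium. Each group holds 3 libraries, except clone 5F at day 0 and 120 min, which holds 2. There is 1 clone per genotype, so genotype and clone cannot be told apart, and the study calls its replicates technical, so the p-values below measure only the spread between such libraries. A second data set, from pooled CRAC libraries, gives the relative binding of MTR4, SKIV2L, XRN1 and AVEN to each mRNA, with no replicate values. CRAC is UV crosslinking of a tagged protein to RNA, then sequencing of the bound fragments. By the study's methods these libraries came from other embryonic stem cell lines, not from clones 5F and 7E. Those lines are Rosa26Cre-ERT2/BirA-V5, each with the bound protein tagged at its own gene.

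Total gene counts ranged from 24440935 to 34114250 per library, with a median of 28307574. Stem cell markers were high in every mock group (7 genes, summed 2273 to 2822 CPM, counts per 1000000 gene counts of a library), while the summed CPM of 5 feeder cell markers was 1.94 to 8.70. Summed primitive endoderm markers were at 69.9 to 86.1 CPM in the mock libraries of clone 5F and at 6.73 to 8.135 CPM in those of clone 7E; neural markers were at 22.4 to 29.4 CPM and 41.5 to 68.0 CPM, and mesoderm markers at 0.9996 to 3.11 CPM in all. Between the days of clone 7E, summed stem cell markers went from 2722 to 2822 CPM down to 2273 to 2357, summed neural markers from 62.98 to 67.98 down to 41.5 to 45.86, and summed feeder markers from 1.939 to 2.483 up to 4.944 to 6.067. In clone 5F the same sums went from 2748 to 2762 down to 2465 to 2580, from 27.51 to 29.4 down to 22.37 to 24.16, and from 5.467 to 6.035 up to 7.031 to 8.699. None of the ranges of these sums overlapped between days, but single markers did not all follow their sum. In clone 5F, Sox2 rose from 295.3 to 298.7 CPM up to 320.1 to 342.9. Mean Klf4 rose from 98.91 to 108.9 CPM there and mean Sox1 from 3.198 to 3.47, while the feeder markers Col1a2 and Postn were lower. Mean Sox2 in clone 7E was 372.3 CPM at day 0 and 373.4 at day 4. The part of such cells in the differences between days or clones was not tested. In clone 5F, mock Skiv2l totals were 147.4 to 147.9 CPM for day 0 and 132.1 to 152.7 CPM for day 4 and did not pass the test (log2 fold change -0.01, adjusted p = 0.914). Cre removes only some exons, so a total over the whole gene does not test the deletion, and the days of clone 5F are given as labelled. In clone 7E Skiv2l fell from 31.2 to 36.1 CPM at day 0 to 12.35 to 13.75 CPM at day 4 (log2 fold change -1.32, adjusted p = 7.86e-13), and Aven was at 1.297 to 2.993 CPM against 32.1 to 36.1 CPM in clone 5F.

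The share of each library's gene counts that fell on the 80 members was 2.09% to 2.39% in the 12 mock libraries and 2.55% to 3.58% in the 35 libraries with actinomycin D. In every clone and day, the library with the highest share was replicate 1 at 120 min, replicate 2 at 240 min and replicate 3 at 360 min (12 of 12 groups). These 12 libraries lay from 2.96% to 3.58%, against 2.55% to 3.07% for the other 23 treated libraries. The labels name no batch that would set them apart. The tests of slope, of change in decay and of days at single times were also computed without them. The half-lives, shares left, classes of slope and correlations given below were not. No member gained or lost a call in the change of decay, which called 0 members with all libraries too. Without them the median slope of the members went from -0.1343 to -0.1478 log2 per hour in clone 5F day 0. It went from -0.1319 to -0.1443 in clone 5F day 4. In clone 7E it went from -0.1408 to -0.1557 at day 0 and from -0.1694 to -0.1829 at day 4. In clone 5F day 4 and clone 7E day 4, 79 members in place of 80 then passed the test of the slope. The median slope of all genes became steeper too in all 4. The median of the members exceeded it by 0.0821, 0.0812, 0.076 and 0.0457 log2 per hour, in the same order. With all libraries these values were 0.0848, 0.0841, 0.0815 and 0.05.

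**Figure D1:**
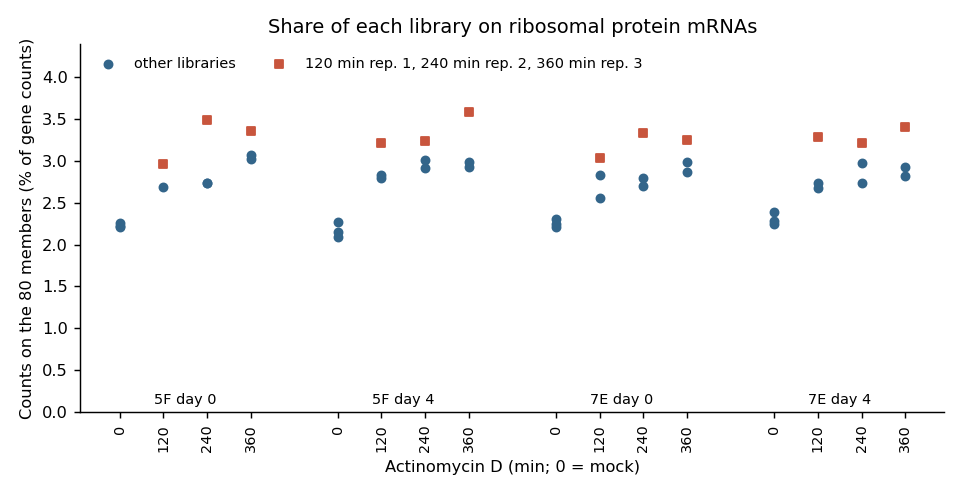
Share of all gene counts (percent) on the 80 ribosomal protein mRNAs, 1 point per library, by clone, day and minutes of actinomycin D. Mock libraries sit between 2.09% and 2.39%, and the squares mark the 12 libraries that were highest in their group.

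Windows around the annotated starts of a few members are shown because a TOP tract, by which this family is known, lies at the start of the mRNA. Of the 80 members, 60 matched a promoter entry in RefSeq (GRCm38.p6), with 72 annotated starts. Rpl3 was among the 20 without an entry. In the windows below, 15 bases before each annotated start are followed by the 15 bases that begin with it, on the strand of the gene, and capitals mark the longest unbroken run of C and T where it has 6 or more bases. In some windows, those of Rpl4 and Rpl10a among them, the run lies wholly before the annotated start, and Rpl24 and Rpl9 have none. The first 4 have long runs and lie at chr2:26910792-26910821 (plus strand), chr3:130730323-130730352 (minus strand), chr9:64173372-64173401 (plus strand) and chr4:86857353-86857382 (minus strand):
Rpl7a: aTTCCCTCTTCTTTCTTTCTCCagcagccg
Rpl34: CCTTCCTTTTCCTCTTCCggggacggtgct
Rpl4: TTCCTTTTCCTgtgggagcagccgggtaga
Rps6: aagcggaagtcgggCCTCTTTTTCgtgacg
Rpl28, Rps2 and Rpl39l changed in mock libraries, and their windows lie at chr7:4792950-4792979, chr17:24720048-24720077 and chr16:10170213-10170242 (all plus strand):
Rpl28: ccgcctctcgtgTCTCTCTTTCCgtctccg
Rps2: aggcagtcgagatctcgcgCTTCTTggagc
Rpl39l: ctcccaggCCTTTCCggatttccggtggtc
Rpl10a, Rpl24 and Rpl9 were among the members that fell fastest under actinomycin D, and lie at chr17:28328456-28328485 (plus strand), chr16:55966260-55966289 (plus strand) and chr5:65391417-65391446 (minus strand):
Rpl10a: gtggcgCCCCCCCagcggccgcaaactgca
Rpl24: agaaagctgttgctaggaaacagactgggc
Rpl9: acgcagggccctgacggattacaagaacgt

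A run of 6 or more C or T stood in the window of 37 of the 60 members with an entry (61.7%), against 32.7% of all 27025 genes with one. The search used the strand of the gene only, and a window without such a run says only that these letters are not at the annotated start. The longest run was 21 bases, in Rpl7a, which encodes a large-subunit protein. The length of the run had next to no relation to the decay slope described below (Spearman's rho 0.044 across 60 genes, which are not independent replicates).

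Levels per coding length in the mock libraries of clone 5F labelled day 0 covered a very wide range. Rpl8, a protein at the core of the large subunit, was highest at 2682 ± 56.4 CPM per coding kilobase (SD, n = 3), and Rps3, a small-subunit protein, was at 2545 ± 46.4. Lowest were Rpl3l at 0.733 ± 0.100, Rpl24 at 3.72 ± 0.836 and Rpl29 at 6.60 ± 0.542 CPM per coding kilobase. Rpl3l is the striated-muscle counterpart of Rpl3, whereas Rpl24 and Rpl29 encode large-subunit proteins of ordinary ribosomes. Rpl3 was at 44.6 ± 2.75 CPM per coding kilobase, against a median of 196 over the 80 members. The acidic stalk proteins, which recruit elongation factors, were high: Rplp1 was at 2422 ± 105, Rplp0 at 1475 ± 35.5 and Rplp2 at 678 ± 36.0 CPM per coding kilobase.

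These levels count only reads that map to 1 place in the genome, and the levels were lower for members with more of their sequence repeated elsewhere. For each member the coding sequence was cut into overlapping words of 31 bases, and the words with an exact copy elsewhere in GRCm38.p6 were counted. All words were repeated in 30 members, 50% to under 100% in 42 and under 50% in 8. The median level was 34.5 CPM per coding kilobase in the first class, 428 in the second and 1458 in the third. Spearman's rho between repeated share and level was -0.66 across the 80 genes. For Rpl3, 97.4% of the words were repeated, for Rpl24 100%, for Rpl4 39% and for Rpl3l 0%. So a low value here is a low number of uniquely mapped reads, and differences between members within a library do not rank their mRNAs. Reads were counted over all annotated exons of a gene, and for Rpl3 (chr15:80077791-80091868, minus strand) the annotation holds 7 transcripts, of which 3 are coding, 3 retain an intron and 1 is marked for nonsense-mediated decay. Which of these the counted Rpl3 reads came from cannot be read from gene totals.

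Whether the ribosomal protein mRNAs changed with 4OHT was asked first in the mock libraries of clone 5F. Rpl3 rose most. It stood at 1830, 1920 and 1720 normalized counts in the libraries labelled day 0 and at 4220, 3648 and 4224 in those labelled day 4. The lowest library labelled day 4 lay far above the highest labelled day 0. The log2 fold change was 1.14 (SE 0.06, edgeR quasi-likelihood adjusted p = 9.5e-12), and it stayed between 1.07 and 1.25 with each replicate left out. The family as a whole stayed level: the median log2 change of the 80 members was 0.00, beside -0.00 (-0.005) over all 16349 genes tested. In all, 11 members rose and 6 fell, where 12.8% of all genes tested rose and 11.6% fell. In bulk RNA, fewer cells of a type and less RNA per cell cannot be told apart.

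After Rpl3, the small-subunit genes Rps16 and Rps2 and the large-subunit genes Rpl10l and Rpl23a changed most upwards. Rps2, which sits by the mRNA entry site of the small subunit, went from 1541 to 1686 normalized counts in the libraries labelled day 0 to 1944 to 2556 in those labelled day 4 (log2 fold change 0.42, SE 0.08, adjusted p = 0.000357). Rpl10l, a retrogene copy of Rpl10 known from the testis, went from 325.9 to 392.2 up to 446.3 to 512.0 (0.41, SE 0.08, adjusted p = 0.00134). The groups did not overlap for either gene, and both kept their call with each replicate left out. Rps16 (0.63, SE 0.16, adjusted p = 0.00586) and Rpl23a (0.36, SE 0.13, adjusted p = 0.0416) rested on about 100 counts. Rps16 lost its call without replicate 1 (adjusted p = 0.0615) and without replicate 3 (0.0549). Rpl23a lost it whichever of the 3 replicates was left out (0.0868 to 0.223). Of the exonic length of Rpl23a, 62.3% overlaps other genes, 1 of them a small nucleolar RNA gene, and whether the counts use strand is not given in the sources used here.

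The members that fell in clone 5F did so by at most 0.25 on the log2 scale. Rps25, a small-subunit protein used by some viral internal ribosome entry sites, was at 1230 to 1401 normalized counts in the libraries labelled day 0 and at 1048 to 1119 in those labelled day 4 (log2 fold change -0.25, SE 0.06, adjusted p = 0.00424). Rpl39l, a paralog of Rpl39 known from the testis, had -0.21 (adjusted p = 0.016) and Rps27l, a p53-induced paralog of Rps27, had -0.20 (adjusted p = 0.00696). Rpl30 and Rps14, a protein of each subunit, both had -0.17 (adjusted p = 0.01 and 0.0177), and Rpl32, of the large subunit, had -0.16 (adjusted p = 0.0132). All 6 lost their call with at least 1 replicate left out, with the highest adjusted p between 0.0737 for Rps25 and 0.254 for Rps14. The stalk gene Rplp2 was among the risers (0.19, adjusted p = 0.0135), also not without replicate 1 or 3 (0.185 and 0.293), whereas Rplp0 (0.01, adjusted p = 0.876), Rplp1 (0.10, adjusted p = 0.184) and Rpl3l (0.31, SE 0.24, adjusted p = 0.372) did not pass the test. Without replicate 1 the counts were 3 higher and 1 lower, without replicate 3 they were 3 and 2, and without replicate 2 they were 18 and 13.

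The same question in clone 7E gave Rpl3 at the top again. Its normalized counts were 2558, 2707 and 2402 at day 0 and 4705, 4348 and 4329 at day 4, with no overlap. The log2 fold change was 0.80 (SE 0.05, adjusted p = 1.88e-11), and 0.76 to 0.86 with each replicate left out. The median over the 80 members was 0.05 and over all 16333 genes -0.01. There were 14 members higher and 2 lower, against 20.7% of all genes higher and 19.4% lower. Without replicate 1, 4 members were higher, and without replicate 3, 22. Without replicate 2, 1 was lower.

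Rpl10l went from 193.5 to 200.5 normalized counts at day 0 to 309.0 to 338.4 at day 4 in clone 7E (log2 fold change 0.72, SE 0.09, adjusted p = 1.54e-06). Rps26, a small-subunit protein at the mRNA exit site, went from 10324 to 11045 up to 12167 to 13059 (0.26, SE 0.05, adjusted p = 7.83e-05). Neither gene had overlapping groups, and both kept their calls with each replicate left out. Rpl28, also of the large subunit, was at 0.25 (adjusted p = 0.0491) and lost its call without replicate 3 (0.05, adjusted p = 0.708) or replicate 1 (adjusted p = 0.112). Rps25 was lower again (-0.28, SE 0.08, adjusted p = 0.00478, and 0.0545 without replicate 2), as was Rps7, a small-subunit protein (-0.20, adjusted p = 0.0306, and 0.332 without replicate 2). Of the stalk genes, Rplp0 rose (0.17, adjusted p = 0.00425, and 0.109 without replicate 1), whereas Rplp1 (0.11, adjusted p = 0.119) and Rplp2 (0.08, adjusted p = 0.28) did not pass the test. Rpl39l (0.14, adjusted p = 0.207), Rps27l (-0.00, that is -0.0042, adjusted p = 0.957) and Rpl3l (-0.01, adjusted p = 0.98) did not either.

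All of these changes are relative to the bulk of the cells' mRNA, because libraries were scaled to each other within a time point. Spike-in (ERCC) RNA added to the samples took 6423 to 6616 CPM in the mock libraries of clone 7E at day 4 against 3104 to 3201 at day 0. With each library scaled to its own ERCC total, the median of all genes in clone 7E moved to about 1.1 log2 units lower at day 4 and all 80 members were lower, Rpl3 included (-0.29, that is -0.295, adjusted p = 4.32e-05). In clone 5F, where ERCC CPM were 2755 to 2995 and 2841 to 3091, that scaling left Rpl3 higher and gave 4 members higher and 7 lower. By the study's methods each sample received the same amount of spike-ins, so such scaling follows the RNA of the whole sample. Cell numbers at harvest are not given, so fewer cells and less RNA per cell cannot be told apart.

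Between the clones at day 0, Rpl13 and Rpl28 were higher in clone 7E, while the paralogs Rpl39l and Rpl10l were lower. At day 0 the clones already differed in Skiv2l as well as in Aven. Mean mock Skiv2l was 147.6 CPM in clone 5F and 33.62 CPM in clone 7E. Mean mock Aven was 35.6 CPM in clone 5F and 2.321 CPM in clone 7E. The part of either gene in the differences between the clones was not tested. Rpl13, a large-subunit protein, was at 3182 to 3787 normalized counts in clone 5F and 5405 to 6003 in clone 7E (log2 fold change 0.66, SE 0.05, adjusted p = 7.5e-10). Rpl39l was at 900.5 to 978.4 in clone 5F and 430.9 to 525.4 in clone 7E (-0.95, SE 0.07, adjusted p = 1.38e-10). Rpl10l was at 325.9 to 392.2 and 193.5 to 200.5 (-0.84, SE 0.09, adjusted p = 7.7e-08). In none of these 3 genes did the clones overlap. Rpl28 (0.57, adjusted p = 9.49e-05) and Rpl3 (0.49, SE 0.05, adjusted p = 5.27e-08) were higher too and kept their calls with each replicate left out. Of the weaker calls named by the rule, Rpl36 (0.35), Rpl13a (-0.20), Rpl39 (-0.19) and Rpl21 (-0.16), all of the large subunit, those of Rpl36, Rpl39 and Rpl21 were lost with a replicate left out (highest adjusted p 0.0882, 0.199 and 0.31). Rplp2 was higher as well (0.19, adjusted p = 0.00452, and 0.0817 without replicate 3), whereas Rplp0 (-0.04, adjusted p = 0.46), Rplp1 (0.02, adjusted p = 0.817), Rps27l (0.00, that is 0.0023, adjusted p = 0.976) and Rpl3l (-0.11, adjusted p = 0.788) did not pass the test.

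In all, 16 members were higher and 6 lower in clone 7E, against 20% and 19.7% of all 16299 genes, with a member median of 0.05 and an all-gene median of -0.01. Scaled to own ERCC totals, 4 were higher and 25 lower, with the median of all genes at -0.17, and the difference in the change with day was lower for all 80. Same-numbered mock libraries of the 2 clones deviated together, and with the replicate number as a block the counts were 31 higher and 8 lower. Without replicate 1 they were 9 and 3, and without replicate 3 they were 8 and 4. The change with day differed between the clones in 2 members, where 6.65% of all 17209 genes had a larger and 5.29% a smaller change in clone 7E. Rpl3 rose less in clone 7E than in clone 5F (difference -0.34, SE 0.08, adjusted p = 0.00861), and Rpl39l differed by 0.35 (SE 0.11, adjusted p = 0.0348). Rpl3 lost this call without replicate 1 (adjusted p = 0.114) or 3 (0.0623), and Rpl39l without replicate 1 (0.252) or 2 (0.138).

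**Figure D2:**
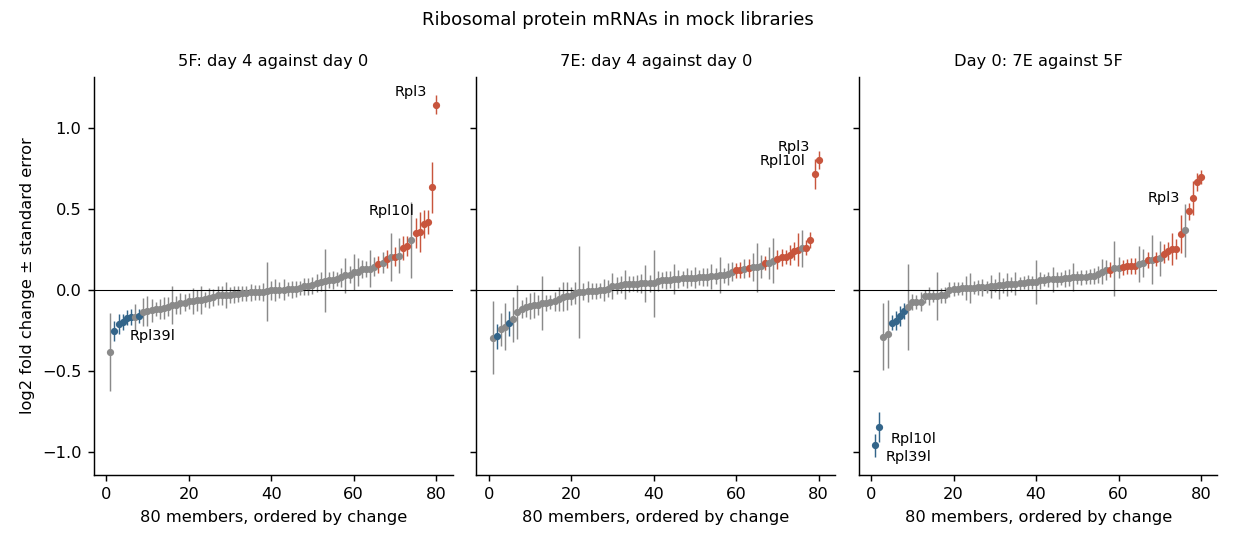
Log2 fold change (± standard error) of each of the 80 members in mock libraries, ordered by size, with red for higher and blue for lower at an adjusted p under 0.05 and grey for the others. Rpl3 stands at 1.14 in clone 5F and 0.80 in clone 7E, and Rpl10l and Rpl39l are lowest between the clones.

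Actinomycin D was used to ask how fast the mRNAs disappear. With counts scaled across time points by 1 spike-in factor per time point, 79, 80, 79 and 80 of the 80 members fell over 360 min in clone 5F day 0, clone 5F day 4, clone 7E day 0 and clone 7E day 4, where 89.7%, 90.8%, 92.6% and 94.2% of all genes fell. As a group the members fell more slowly than other genes. The median slope of the members was -0.13, -0.13, -0.14 and -0.17 log2 units per hour, against -0.22 over all genes in each of the 4. The median share of the mock level left at 360 min was 56.8%, 56.8%, 55.4% and 48.7% for the members and 39.7%, 39.4%, 38.7% and 39.0% for all genes. Fitted half-lives had medians of 445, 451, 428 and 352 min for the members and 279, 283, 275 and 281 min for all genes. Of the 80 members, 58, 58, 55 and 52 lay above the median of all genes. The lead of the members over all genes was mostly set in the step from mock to 120 min. Their median slope exceeded that of all genes by 0.0848, 0.0841, 0.0815 and 0.05 log2 per hour over all times, and by 0.0245, 0.0149, 0.0128 and 0.008 without the mock libraries. Scaled without spike-ins (TMM), the comparison with other genes held while the sign did not: 43 to 49 members rose and 17 to 19 fell.

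Most members lay close together, and a minority fell fast. A slope above -0.2 log2 per hour in all 4 clones and days was found in 47 members and one below -0.3 in all 4 in 17. Rpl4, a large-subunit protein and the member with the most counts, is an example of the first. It had 85012, 82960 and 87212 normalized counts in the mock libraries of clone 5F day 0 and 54212, 53598 and 57913 at 360 min, and a fitted half-life of 562 min (512 to 623 min over 1 SE of the slope). Rplp0 (575 min), Rplp1 (694 min) and Rplp2 (753 min) fell slowly in the same cells too. The tissue-restricted Rpl3l, at 17 to 62 raw counts per library, gave 4907 min with no upper bound in clone 5F day 0 and 585 min in clone 7E day 4, and was the one member whose slope did not pass the test at day 0 of either clone. Rpl10l (653 min) lay above the family median there, and Rpl39l (394 min) and Rps27l (343 min) below it. The 3 longest half-lives were those of Rpl3l, Rplp2 and Rps2 in clone 5F labelled day 0, Rpl22, Rps2 and Rplp1 in clone 5F labelled day 4, Rpl3l, Rpl10l and Rpl22 in clone 7E day 0, and Rpl3l, Rpl14 and Rplp2 in clone 7E day 4.

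The 17 fast members, 9 of the large and 8 of the small subunit, included Rpl24, Rpl3, Rps29, Rpl10a, Rpl9, Rpl10, Rps13, Rps27a, Rpl12, Rps12, Rps16 and Rpl21. Rpl11, which binds the p53 regulator MDM2 when ribosome assembly fails, and Rps6, the S6 kinase substrate, were also among them. Rpl10a had 1123, 1208 and 1138 normalized counts in mock libraries of clone 5F labelled day 0, 317 and 338 at 120 min, and 119, 125 and 137 at 360 min, which is 11.0% ± 0.808 (SD, n = 3) of the mock level. Rpl24 was at 37.8 to 59.4 normalized counts before and 0.9 to 1.8 after 360 min, so its slope rests on few reads. Rps29 and Rps16 had means of 30.4 and 71.6 raw counts per library. Rps16 had 9, 72 and 72 raw counts at 120 min of clone 7E day 4 (replicates 1 to 3). It had 81, 19 and 79 at 240 min and 96, 98 and 19 at 360 min. The low library at each time is the one with the highest share on the members. That library was also lowest for Rps16 in every treated group of clone 5F, and at 120 and 240 min of clone 7E day 0. The fast class was not computed without these libraries. Of the exonic length of Rpl24, 47.0% overlaps another annotated gene.

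Fast members shared a property that the choice of members did not use. Of the 17, 15 had a copy elsewhere of all their coding words, and the other two were Rpl3 (97.4%) and Rps12 (89.1%). Of the 47 slow members 4 had all words repeated, and of the 16 members between these classes 11 did. The median of the mean counts was 277.5 per library for the fast and 7931 for the slow members. Spearman's rho between the repeated share and the slope in clone 5F day 0 was -0.69, and between level and slope 0.66 (n = 80 genes for both). The slopes themselves recurred between the clones (rho 0.92 for clone 5F and 7E at day 0, n = 80 genes), which share their gene models and counting. A transcript with a retained intron was annotated for 14 of the 17 fast and 38 of the 47 slow members. One marked for nonsense-mediated decay was annotated for 7 of the 17 fast and 9 of the 47 slow members. The median slope in clone 5F day 0 was -0.188 log2 per hour for the 18 members with such a transcript and -0.129 for the other 62. The part of these transcripts in the slopes was not tested. Reads that map to more than 1 place were not counted, and the part of this in the fast slopes was not tested.

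**Figure D3:**
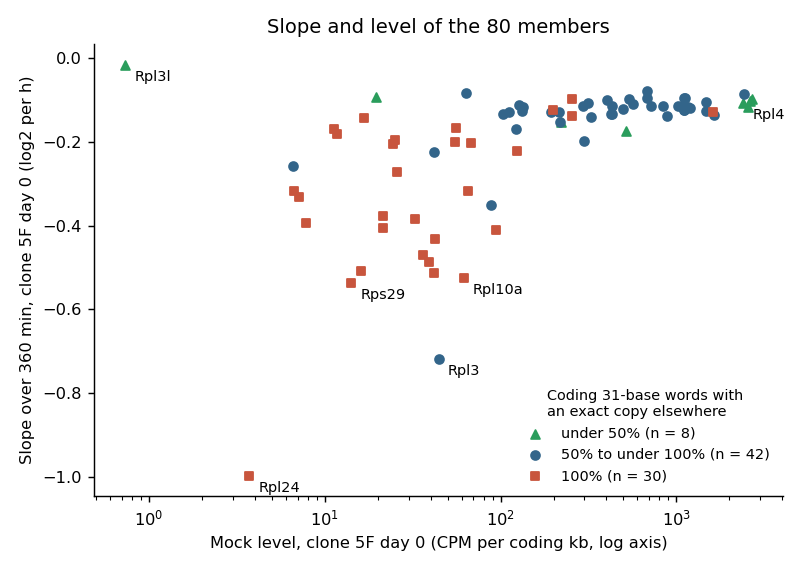
Slope of each member over 360 min of actinomycin D in clone 5F day 0 (log2 per hour) against its mock level (CPM per coding kilobase, log axis), with symbols for the share of its coding words that have an exact copy elsewhere in the genome. Members with all words repeated lie mostly at low levels and include most of the steep slopes, and Rpl3 lies at -0.72 log2 per hour.

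Rpl3 was the fastest or second fastest of the 80 in every clone and day. Its fitted half-lives were 87.3 min in clone 5F labelled day 0 (75.5 to 103.7 min over 1 SE), 91.5 min in clone 5F labelled day 4 (86.4 to 97.2), 79.4 min in clone 7E day 0 (70.2 to 91.4) and 98.3 min in clone 7E day 4 (91.1 to 106.7). These put it at or below percentile 2.9 of all genes. The slopes were -0.72 (SE 0.08), -0.66 (SE 0.03), -0.79 (SE 0.08) and -0.62 (SE 0.04) log2 per hour, and they were -0.50, -0.45, -0.57 and -0.40 when read against the median slope of all genes.

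The course of Rpl3 was not a straight line, and at day 0 most of the loss came early. In clone 5F labelled day 0 it went from 1720 to 1920 normalized counts in mock to 178 and 170 at 120 min, 132, 132 and 126 at 240 min and 100, 79.0 and 97.9 at 360 min. In the libraries labelled day 4 it went from 3648 to 4224 to 919, 974 and 1138 at 120 min, 519, 556 and 583 at 240 min and 228, 248 and 232 at 360 min. At no time did the libraries of the 2 labels overlap. The share left at 120 min was 9.52% ± 0.315 (SD, n = 2) for day 0 and 25.1% ± 2.83 (SD, n = 3) for day 4, but at 360 min it was 5.06% ± 0.637 and 5.86% ± 0.270 (SD, n = 3 each).

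Clone 7E showed the same early gap. Rpl3 was at 268, 270 and 254 normalized counts at 120 min, 148, 142 and 158 at 240 min and 91.3, 93.9 and 94.0 at 360 min of day 0. At day 4 it was at 914 (914.5), 1033 and 1283, then 627, 642 and 598, then 314, 340 and 298 (298.5). Again no groups overlapped. The share left at 120 min was 10.3% ± 0.348 at day 0 and 24.1% ± 4.21 at day 4, and at 360 min it was 3.64% ± 0.0599 and 7.11% ± 0.468 (SD, n = 3 each).

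**Figure D4:**
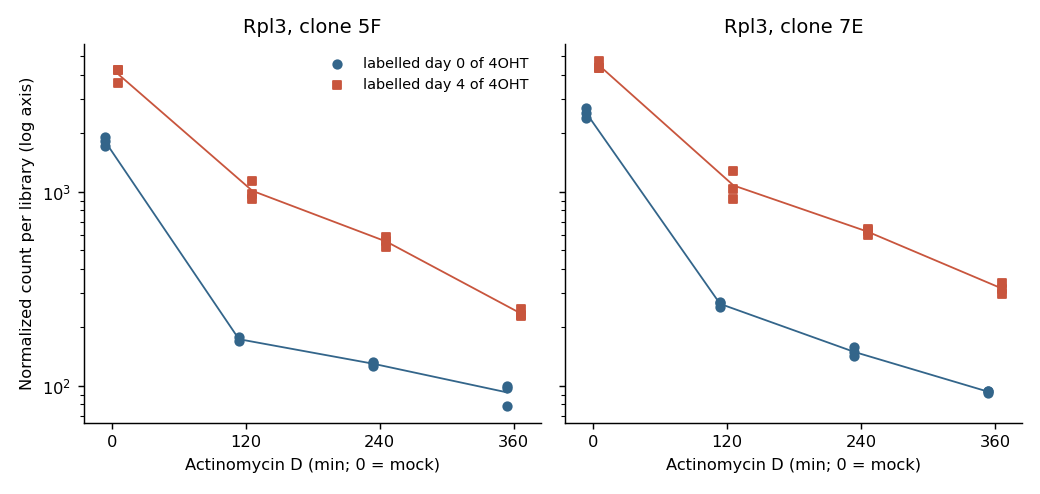
Normalized counts of Rpl3 in each library (log axis) against minutes of actinomycin D, by clone, with circles for day 0 and squares for day 4 and lines through the group means. The groups do not overlap at any time, and the gap is widest at 120 min in clone 5F, where 170 and 178 stand against 919 to 1138.

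The planned test of a change in decay, 1 slope per day, called no member in either clone by edgeR, DESeq2 or limma. All genes were called at a rate of 0.196% in clone 5F and 0.884% in clone 7E. At an unadjusted p under 0.05, edgeR gave 0 members in clone 5F and 1, Rpl10l, in clone 7E (-0.10 log2 per hour, adjusted p = 0.181). Rpl3 changed by 0.06 log2 per hour in clone 5F (SE 0.09, adjusted p = 1) and 0.17 in clone 7E (SE 0.09, adjusted p = 0.619). The difference between the clones at day 0 was called in 0.0394% of genes and in no member by any of the 3 tools (1 at an unadjusted p under 0.05, Rpl27). For Rpl3 it was -0.07 (SE 0.11, adjusted p = 1). Without the mock libraries the change of Rpl3 between days turned to -0.29 in clone 5F (adjusted p = 0.00278) and -0.06 in clone 7E (adjusted p = 0.498). The median change in slope over the members was -0.00 (-0.0041) in clone 5F and -0.02 in clone 7E, beside 0.00 (0.002) and -0.00 (-0.0016) over all genes.

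Because 1 slope describes the course of Rpl3 poorly, days were also compared at single times, a contrast added after the data had been seen. At 120 min, Rpl3 was higher by 2.54 log2 units in the libraries labelled day 4 of clone 5F (SE 0.11, adjusted p = 1.56e-13) and by 2.03 in clone 7E (SE 0.09, adjusted p = 6.1e-14). It was the one member called higher at that time in either clone, where 2% and 16.3% of all genes were higher and 1.29% and 14.7% lower. At 240 min the differences were 2.09 and 2.06, and at 360 min 1.35 and 1.77 (adjusted p at most 1.64e-09). Beside Rpl3, 1 member was higher and 1 lower in clone 5F at 240 min (Rpl29 and Rpl3l), and in clone 7E 0, 3 and 4 were higher and 5, 2 and 4 lower at 120, 240 and 360 min. Of all genes, 2.65% were higher and 2.2% lower in clone 5F at 240 min, 2.46% and 1.94% at 360 min, and 16.3% and 14.7%, then 16.5% and 16.1%, in clone 7E. The other 70 members with a mean of at least 100 counts in clone 5F ranged from -0.30 to 0.42 at 120 min, and the other 71 in clone 7E from -0.80 to 0.29. As in mock libraries, these levels are relative to the bulk of the mRNA. In clone 7E, ERCC RNA took 8395 to 10870 CPM at 120 min of day 4, against 4364 to 5125 at day 0. At 360 min it took 13560 to 18180 against 6795 to 7763. In clone 5F at 120 min it took 4555 to 5565 against 3988 to 4071.

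Set against their own mock libraries, the fall of Rpl3 was smaller at day 4 than at day 0. In clone 5F the difference was 1.40 log2 units at 120 min (SE 0.13, adjusted p = 5e-07), 0.95 at 240 min (SE 0.12, adjusted p = 7.12e-05) and 0.21 at 360 min (SE 0.13, adjusted p = 0.672, and -0.04 without replicate 2). In clone 7E it was 1.22, 1.25 and 0.96 (SE 0.12, 0.12 and 0.13, adjusted p = 5.96e-07, 3.71e-07 and 2.57e-05). Where it passed the test, Rpl3 was the one member with a smaller fall at day 4, and 0.318%, 0.452% and 0.419% of genes had one in clone 5F at 120, 240 and 360 min and 0.821%, 1.88% and 2.93% in clone 7E. Rpl10l fell more at day 4 in clone 7E at 240 and 360 min, where 1.38% and 2.39% of genes did, though at 240 min not with the replicate number as a block. At 120 min 0.0391% of genes fell more in clone 5F and 0.568% in clone 7E, and no member did. At 240 and 360 min in clone 5F no member did either, where 0.168% and 0.212% of genes did. Scaled to own ERCC totals, the value of Rpl3 at 240 min in clone 5F was 0.87 and no longer passed (adjusted p = 0.199).

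CRAC binding was given for 53 of the 80 members among 7240 mRNAs. In these values the pooled counts of MTR4, SKIV2L and XRN1 on each mRNA were scaled and divided by their sum, so a higher share for one protein is a lower share for the others. SKIV2L took the largest part on ribosomal protein mRNAs. Its median share was 0.492 over the members against 0.266 over the 7187 other mRNAs, and 43 of the 53 lay above that median. The median MTR4 share was 0.185 against 0.320 and the median XRN1 share 0.274 against 0.338, while binding of AVEN relative to the 3 others together was 0.310 against 0.295. The members are short and abundant (median transcript length 780 against 3096 bases over all mRNAs, median RPKM 291 against 21.2). Against the 887 other mRNAs with an RPKM of at least 92.4, the lower quartile of the members, the SKIV2L medians were 0.492 and 0.463, and those of MTR4 0.185 and 0.211. Pooling leaves no replicate error, so none of these differences was tested.

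The members differed widely among themselves in what bound them. SKIV2L was highest on Rpl7a (0.781), Rps18 (0.776) and Rpl32 (0.767) and lowest on Rpl31 (0.038), Rpl12 (0.0858) and Rps27a (0.0992). Rpl31 (0.913), Rpl30 (0.855) and Rps27a (0.837) instead had the highest MTR4 shares, and Rps18 (0.0305) and Rps15 (0.0688) were among the lowest. Rps27a encodes a small-subunit protein made as a fusion with ubiquitin. XRN1 was high on Rpl13 (0.556) and Rpl27a (0.545) and lowest on Rps7 (0.0316), Rpl30 (0.0354) and Rpl21 (0.0483). AVEN was highest on Rps20 (0.867), Rpsa (0.653) and Rps9 (0.573) and lowest on Rps27a (0.0592), Rpl31 (0.0806) and Rpl35a (0.0874). Rpl3 lay inside the range of the family, with 0.420 for SKIV2L, 0.346 for XRN1, 0.234 for MTR4 and 0.365 for AVEN. The stalk mRNAs Rplp0, Rplp1 and Rplp2 had SKIV2L shares of 0.374, 0.492 and 0.554. Across the 53 genes, the SKIV2L share and the slope in clone 5F day 0 had a Spearman's rho of 0.25, and the MTR4 share and the slope -0.36. The shares and the slopes were measured in different cell lines.

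**Figure D5:**
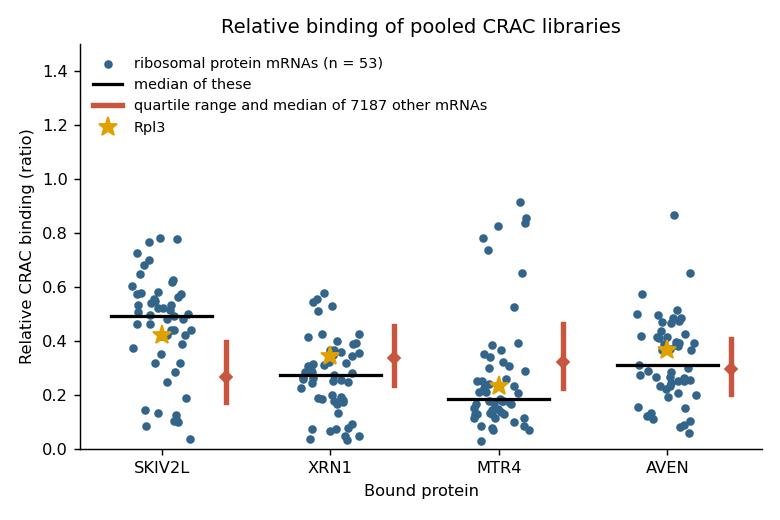
Relative CRAC binding of MTR4, SKIV2L and XRN1 (shares that sum to 1) and of AVEN (ratio to their sum) on the 53 members with a value, with black lines for their medians and red bars and diamonds for the quartile range and median of the 7187 other mRNAs. The SKIV2L median is 0.492 against 0.266, and Rpl3 (star) lies at 0.420.

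Related genes were read beside the members, where 12.8% of all genes tested rose and 11.6% fell in clone 5F, and 20.7% and 19.4% in clone 7E. Of 6 tested ribosomal protein genes outside the symbol pattern, among them Fau, Rps3a1 and Rpl22l1, none rose and 3 fell in mock libraries of clone 5F (median -0.18), and 1 rose and 1 fell in clone 7E (median 0.06). Of 77 mitochondrial ribosomal protein genes, 0 rose and 22 fell in clone 5F (median -0.10) and 3 rose and 33 fell in clone 7E (median -0.10). Among 17 other TOP mRNAs, 4 rose and 1 fell in clone 5F (median -0.03), and 5 rose and 0 fell in clone 7E (median 0.08). The elongation factor Eef2 was at 0.27 and 0.36 in the 2 clones, the poly(A)-binding protein Pabpc1 at 0.32 and 0.35, and Tpt1, a translationally controlled growth factor, passed the test in clone 5F (0.61, adjusted p = 3.35e-05).

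Counts of ribosome assembly genes are small and are read against the same shares of all genes. Of 19 biogenesis factors, 6 rose and 3 fell in clone 5F (median 0.04) and 4 rose and 5 fell in clone 7E (median 0.02), and of 8 chaperones of ribosomal proteins 1 rose and 2 fell in clone 5F and 1 rose and 1 fell in clone 7E (medians -0.07 and 0.04). Of 8 regulators of TOP mRNAs, 4 rose in clone 5F, among them Larp1 (0.22, adjusted p = 0.0014) and Mtor (0.24, adjusted p = 0.00133), and 2 rose and 1 fell in clone 7E, where the translation repressor Eif4ebp1 had 0.61 (adjusted p = 4.27e-10). Of 6 decay factor genes 2 rose and 2 fell in clone 5F, and 3 fell in clone 7E, with Skiv2l itself lowest there (-1.32, adjusted p = 7.86e-13). Under actinomycin D the other TOP mRNAs had a median slope of -0.13 log2 per hour in clone 5F day 0, and the mitochondrial ribosomal protein genes -0.18, beside -0.13 for the members and -0.22 for all genes. No gene of these lists changed its decay between days, except 1 TOP regulator with a faster decay at day 4 in clone 7E.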

How the data were processed

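RNA was depleted of ribosomal RNA and, per the labels of these libraries, prepared with the TruSeq v2 kit. Whether the gene counts use strand is not given in the sources used here. Per the labels and the study's methods, the authors aligned reads with STAR 2.5.0a to mm10 (GRCm38), kept unique mappers, and deposited counts per GENCODE gene, which were used here as raw counts in 47 libraries. Names and versions of upstream tools come from the submitters' processing notes. In the CRAC table the authors aligned reads to 1 transcript per gene, collapsed and pooled replicates, and deposited the binding of MTR4, SKIV2L and XRN1 as a fraction of their sum, AVEN as a ratio to that sum, expression as RPKM, and transcript positions and lengths. A deposited table of the authors' fitted half-lives was not used here.

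Counts were scaled by DESeq2 1.42.0 size factors within each time point and by 1 spike-in factor per time point (1, 0.649, 0.531 and 0.438 at 0, 120, 240 and 360 min, from the 34 ERCC RNAs with a mean above 50). Tests were edgeR 4.0.16 quasi-likelihood tests (R 4.3.3) after filtering low counts, with Benjamini-Hochberg adjustment over all genes and a threshold of 0.05. DESeq2 and limma 3.58.1 were alternatives. Half-lives were fitted by a straight line through the natural log of normalized counts, with a pseudocount of 1, and their bounds are those of the slope plus or minus 1 SE. Scripts were tested on simulated data. Other steps used Python 3.11.15 with pandas 2.3.3, numpy 2.4.6, scipy 1.17.1 and matplotlib 3.10.9.

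The members and the gene lists were chosen with earlier results of these data known. Named members were Rpl3, up to 5 called members in each direction (mean count 100 or more, sign unchanged with each replicate left out), the stalk genes, the paralogs, and the 3 extremes of level, half-life and binding. Others were named after their values were seen. Some members that this rule names are not reported here, but are included in the counts and medians. Same-numbered mock libraries of the 2 clones deviated together at day 0 (correlations 0.146 to 0.349, other numbers -0.236 to 0.09), but those of the 2 days did not (-0.298 to -0.078 in clone 5F and -0.262 to -0.03 in clone 7E). In treated libraries the same-number correlations between days were 0.046 to 0.518 in clone 5F and -0.23 to 0.56 in clone 7E, so not every pair was over 0.1. No library was a duplicate of another. All columns of per-sample values in the count table were used. For members with many counts, counting error is small and the replicate spread sets the precision. For those with few, such as Rpl24 (mean 14.3 counts per library) and Rps29 (30.4), counting error is large as well.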

Additional observations from a re-analysis of the deposited data

Results flagged for a closer look

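The change of Rpl3 between days in mock libraries differed between the clones by -0.34 (-0.3403) on the log2 scale, clone 7E minus clone 5F, by a test of the interaction (edgeR quasi-likelihood adjusted p = 0.00861). The change of Rpl39l differed by 0.35 (0.3496, adjusted p = 0.0348). Both calls were lost with single replicates left out.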

How the results depend on the processing

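Scaled to own ERCC totals, 4 members were higher and 7 lower in clone 5F, 0 higher and 80 lower in clone 7E, 4 higher and 25 lower between the clones, and 0 higher and 80 lower in the difference between the clones. The direction then turned for Rplp0 in clone 5F (-0.0563), for Rpl3 (-0.295), Rplp0 (-0.9308), Rplp1 (-0.9843), Rplp2 (-1.0192), Rpl10l (-0.3815), Rpl39l (-0.9571), Rps26 (-0.8375) and Rpl28 (-0.8475) in clone 7E, for Rplp1 (-0.142) and Rps27l (-0.1571) between the clones, and for Rplp0 (-0.8745), Rplp1 (-1.0109), Rpl10l (-0.7222), Rpl39l (-0.68) and Rps27l (-0.8413) in the difference. The median half-life of members in clone 7E day 4 was then 407.4 min. With all libraries of the clone, 2 members were higher and 0 lower in clone 5F, and 6 and 0 in clone 7E. DESeq2 gave 1 member lower in clone 7E and 3 between the clones, and no filter gave 3 lower in the difference. With TMM, 17, 17, 19 and 18 members fell in the 4 decay series, and Rps27l in clone 7E was at 1e-04.

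The replicate block left 3 members lower in clone 5F and gave 31 higher between the clones. Every same-number pair of mock libraries correlated above 0.1 only between the clones. Between the days, treated libraries of clone 5F correlated positively in 8 of 8 pairs (0.046 to 0.518), a hint from the data rather than the design. In the contrasts at single times the block kept each call of Rpl3, and gave 1 member lower in level and 0 with a larger fall in clone 7E at 240 min.

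Leaving out 1 replicate gave 3 to 18 members higher and 1 to 13 lower in clone 5F, 4 to 22 and 1 to 3 in clone 7E, 8 to 16 and 3 to 5 between the clones, and 0 to 1 in each direction of the difference. Falling members numbered 77 to 79, 78 to 80, 78 to 79 and 76 to 80. Ranges that crossed 0 were those of Rplp0 in clone 5F (-0.0336 to 0.0571), of Rplp2 (-0.0047 to 0.1987), Rps27l (-0.0883 to 0.0393, with 0.0356 between) and Rpl3l (-0.1112 to 0.1445) in clone 7E, of Rps27l (-0.0154 to 0.0363, with -0.0138 between) and Rplp1 (-0.0017 to 0.0504) between the clones, of Rplp1 in the difference (-0.0148 to 0.0357), and of the fall of Rpl3 at 360 min in clone 5F (-0.0355 to 0.3382).

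Without mock libraries 1 member, Rpl3 itself, decayed faster at day 4 in clone 5F, where its change turned to -0.2939. In clone 7E the change of Rpl3 turned to -0.0631. With time points as levels, 1 member was slower and 1 faster in clone 7E. Against mRNAs of like RPKM or short transcripts, the CRAC differences were 0.029 and 0.0637 for SKIV2L, -0.0262 and -0.0523 for MTR4, -0.0233 and 0.0246 for XRN1, and -0.0186 and -0.0109 for AVEN, which was at -1e-04 above an RPKM of 10. The cause of these changes was not tested. Low uniquely mapped counts limit Rpl24, Rpl3l, Rps29, Rps16 and Rpl23a.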
